A study of Mus musculus with 10 samples.

Results

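Ribosome biogenesis and nucleolar genes were examined in muscle satellite cells (MuSCs) that had lost Trpm7. The members were chosen by gene symbol alone, as all symbols of the Utp, Nop, Nol and Rrp families followed by a number, the RNA polymerase I subunits Polr1a to Polr1f, and the individual genes Bop1, Pes1, Wdr12, Fbl, Ncl, Npm1, Dkc1, Gar1, Nhp2, Rrs1, Gnl3 and Ubtf, without pseudogenes. This rule found 54 members among the 24608 gene symbols of the count table, and 47 of them had enough counts to be tested among 7753 tested genes. The rule itself used no measured value.

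RNA was taken from YFP-positive MuSCs, the resident stem cells of skeletal muscle, sorted 3 days after cardiotoxin (CTX) injury. Control mice were Trpm7+/+; Pax7CreERT2/+; Rosa26YFP and conditional knockout mice (Trpm7 cKO) were Trpm7flox/flox; Pax7CreERT2/+; Rosa26YFP. All mice of the study were C57BL6 animals aged 7 to 20 weeks, with a narrower age range given for CTX injection. Males and females were used in about equal numbers across experiments. Both groups received tamoxifen on 5 consecutive days and gave 5 libraries each, every library made from 3000 sorted cells with CEL-Seq2. CEL-Seq2 reads the 3′ end of transcripts and tags each molecule, so that the values are counts of molecules. Cre was driven from the Pax7 locus, so that deletion and YFP labelling were limited to cells with active Pax7 at the time of tamoxifen and their descendants, and controls carried the same Cre and reporter without floxed Trpm7. The labels do not name the sex or number of animals behind a library, so that p-values measure the spread between these libraries. The library names of Trpm7 cKO replicates 4 and 5 share a number, and if it marks 1 animal the Trpm7 cKO group holds 4 independent samples rather than 5.

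Ribosomes are built in the nucleolus. RNA polymerase I transcribes the precursor ribosomal RNA, small nucleolar ribonucleoproteins (snoRNPs) modify it, the small subunit processome folds and cleaves the part that becomes the small subunit, and a further set of assembly factors matures the large subunit. Quiescent MuSCs are small cells with little RNA, and activation after injury is known to be accompanied by growth and a rise in ribosome production.

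Sequence around the annotated start of several members holds the letters CACGTG, the E-box bound by MYC and related factors. Others hold CGCGAGA or its reverse complement TCTCGCG, an element common in promoters of housekeeping genes. RefSeq promoter windows on GRCm38.p6, from 250 bases before to 50 bases after the annotated start, were found for 42 of the 54 members. Windows of Nop2 (chr6:125131803-125131882, plus strand), Utp18 (chr11:93885767-93885846, minus strand) and Nol11 (chr11:107189382-107189461, minus strand) are shown as the 80 bases before the start, because these genes were lower in Trpm7 cKO and carry the E-box there. Shorter windows of 30 bases are shown for Utp4 (chr8:106893643-106893672, plus strand), which was lower, Utp20 (chr10:88826765-88826794, minus strand), which was higher, and Pes1 (chr11:3963965-3963994, plus strand), which was not called. Nol9 (chr4:152039303-152039332, plus strand) and Polr1c (chr17:46248034-46248063, minus strand) were lower and show the other element, the former on both strands with overlap. Capitals mark the matched letters.
Nop2: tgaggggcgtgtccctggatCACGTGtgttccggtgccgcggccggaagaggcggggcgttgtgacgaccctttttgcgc
Utp18: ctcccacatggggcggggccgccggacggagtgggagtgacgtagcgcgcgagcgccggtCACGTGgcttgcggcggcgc
Nol11: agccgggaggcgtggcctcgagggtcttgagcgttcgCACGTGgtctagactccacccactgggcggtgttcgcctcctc
Utp4: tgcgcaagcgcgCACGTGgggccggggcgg
Utp20: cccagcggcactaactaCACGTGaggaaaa
Pes1: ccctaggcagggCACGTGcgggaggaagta
Nol9: ggggtgacgcggTCTCGCGAGAtcgtcccg
Polr1c: ggcggggcaagaTCTCGCGacattcaagat

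CACGTG, which reads the same on both strands, was present in windows of 9 of the 42 members (21.4%). The share was 12.5% among the 6107 tested genes with a window and 8.09% among all 27025 genes with a window. Among members it was found in 4 of 15 lower genes, 1 of 2 higher genes, 3 of 22 genes that were not called and 1 of 3 that were not tested. The motif began 60 bases before the start in Nop2, 20 before in Utp18 and 43 before in Nol11, and at base 16 of the transcript in Utp4, 38 in Utp20 and 3 in Pes1. CGCGAGA, searched on both strands, was present in 6 of 42 members (14.3%), against 7.2% of tested genes and 2.92% of all genes with a window. Those members were Nol9 and Polr1c among lower genes, Nop58 among higher genes, and Nop14, Ubtf and Wdr12, which were not called. Both motifs occurred in windows of lower and of higher members. CACGTG lies after the start in Utp20, which was higher, in Utp4, which was lower, and in Pes1, which was not called. The presence of both motifs is a description of letters in these windows.

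Control libraries held 914361 to 1097709 counts and Trpm7 cKO libraries 205986 to 581121, without overlap, so that sequencing depth and genotype cannot be told apart. Members took 7627 to 9417 counts per control library and 933 to 3561 per Trpm7 cKO library. On the scale used below, counts relative to the library total (CPM) normalized by TMM factors, 3 counts corresponded to 2.98 to 3.47 CPM in control and 4.97 to 16.6 CPM in Trpm7 cKO libraries. These limits cover counting error only. Trpm7 itself was at a mean of 76.9 CPM in control and 71.4 CPM in Trpm7 cKO libraries (edgeR quasi-likelihood test, adjusted p = 0.723), but counts at the 3′ end do not check an upstream deletion. Markers of MuSCs were present in every library, with a summed level of 3889 to 4537 CPM in control and 2933 to 4431 CPM in Trpm7 cKO libraries, and 7 of their 13 tested genes were higher and 3 lower. Their log2 fold changes ran from -2.61 (Chrna1) to 3.49 (Chodl), so that the sum joins genes of opposite direction. Leukocyte markers were higher for 16 of 16 tested genes of 20 listed, and their summed level was 385.5 to 655 CPM in control and 1423 to 6361 CPM in Trpm7 cKO libraries. Genes of other lineages were also higher, namely endothelial markers (5.36 to 66.0 against 114 to 579 CPM, 3 of 3 tested genes higher), fibroadipogenic progenitor markers (986 to 2046 against 1567 to 3858 CPM, 4 of 5 higher), smooth muscle and pericyte markers (598 to 943 against 1187 to 1745 CPM, 3 of 3 higher) and erythroid markers (1.99 to 178 against 146 to 3274 CPM, 3 of 3 higher). In control, Acta2 (481 CPM) and Notch3 (232 CPM) held most of the mean smooth muscle and pericyte sum of 732.5 CPM. Col3a1, which was not called, held 1179 of 1420 CPM of the mean fibroadipogenic sum in control. Schwann cell markers were too low to be tested (1.03 to 2.31 against 1.84 to 127 CPM), with S100b at 0 in every control library. Of 3 tested genes of mature myofibres 2 were lower, with a summed level of the list of 160 to 294 against 96.1 to 182 CPM. Its untested genes had few counts over all libraries of a genotype. Myh1 had 2 in control and 0 in Trpm7 cKO, whereas Ckm had 10 and 22 and Myh4 6 and 18.

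The question addressed was how the ribosome-building programme of MuSCs differed between genotypes 3 days after injury. In Trpm7 cKO MuSCs, 20 of the 47 tested members were lower and 3 were higher at an adjusted p-value below 0.05 (edgeR quasi-likelihood test, Benjamini-Hochberg adjustment over all 7753 genes). The 20 lower members made up 42.6% of those tested, against 24.1% of all tested genes, and the 3 higher members made up 6.38%, against 24.6%. With Trpm7 cKO replicates 4 and 5 summed to 1 library, 22 of 51 tested members were lower and 3 higher. Of all tested genes in that fit, 23.2% were lower and 25% higher. With all libraries kept separate, the median log2 fold change was -0.43 over the tested members and -0.01 over all tested genes. In that fit 37 members were below zero and 10 above. At the additional threshold of a log2 fold change beyond 1.5, 2 members were lower, Bop1 and Utp4, and 0 were higher, where 3.53% of all tested genes were lower and 8.49% higher. Libraries of both genotypes did not overlap for 16 members, all of them lower in Trpm7 cKO, against 17.9% of all tested genes in that direction and 16.6% in the other. The plot of fold changes by role shows that lower genes occurred in every tested role group except the box C/D snoRNP core.

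**Figure D1:**
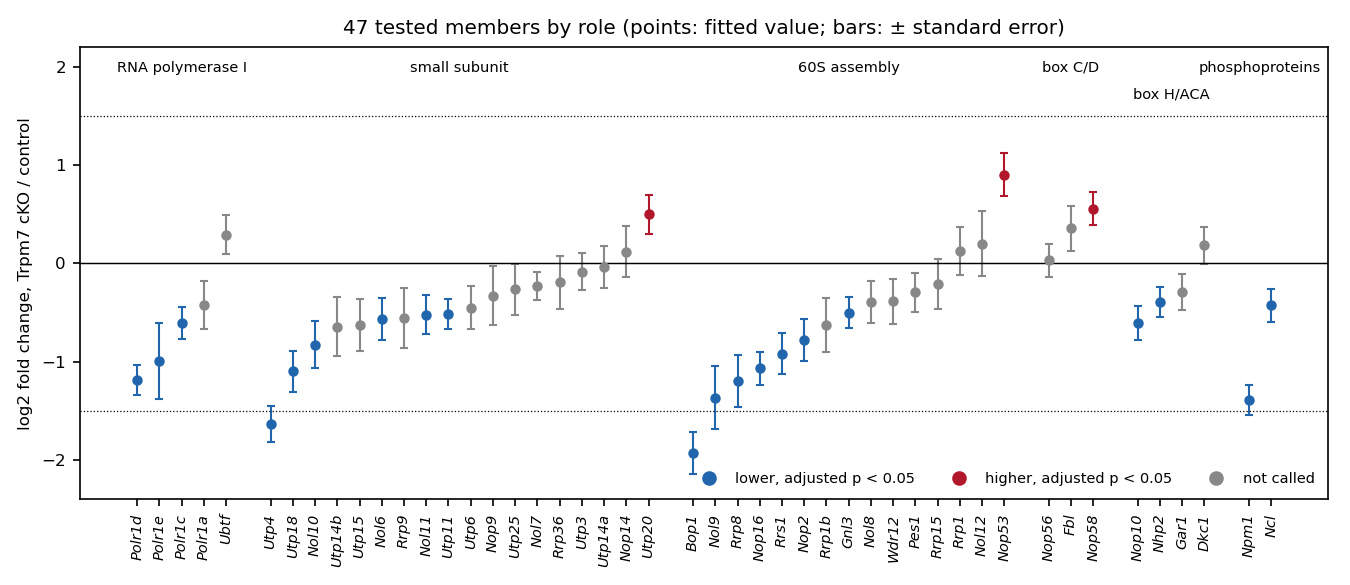
Log2 fold change between Trpm7 cKO and control for the 47 tested members, grouped by role, with bars of 1 standard error and dotted lines at 1.5 in either direction. Blue points, 20 in all, were lower and 3 red points (Utp20, Nop53 and Nop58) were higher at an adjusted p-value below 0.05. Only Bop1 and Utp4 lie beyond the dotted lines.

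In every Trpm7 cKO library the summed level of the 54 members was below that of every control library. The sums were 9364, 8568, 8619, 8393 and 8829 CPM in control libraries and 4518, 5819, 5462, 5900.0 and 5149 CPM in Trpm7 cKO libraries, a ratio of means of 0.613. Npm1 and Ncl held the largest shares of these counts, and without them the sums were still separate, at 4350 ± 200.2 CPM for control and 3227 ± 228 CPM for Trpm7 cKO (SD, n = 5 each), a ratio of 0.742. A fall in a bulk sample can come from fewer cells that express a gene or from less RNA per cell, and these cannot be told apart.

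Summed levels of leukocyte markers moved with genotype in the same libraries. With the leukocyte score as a covariate, 0 members were called in either direction and 12 had an unadjusted p below 0.05, while the median of the members was -0.48. In that fit 5.2% of all tested genes were called higher and 1.87% lower. With the leukocyte score in the fit, the calls of the 23 members were lost without exception. Leukocyte marker levels did not overlap between genotypes (385.5 to 655 against 1423 to 6361 CPM), so that this fit cannot tell them apart from genotype. The part of these cells in the member changes was thus not tested. Satellite cell marker levels gave a different denominator, under which 13 members were lower and 3 higher, against 16.9% and 25.2% of all tested genes. The markers behind it changed in both directions (7 higher and 3 lower of 13 tested), so that it is no fixed measure of MuSC content. The largest change under another scaling came from counts left unscaled per 3000 sorted cells, where the median of all genes was -1.15, that of the members -1.60, and 44 members were lower and 0 higher. Of all tested genes, 66.6% were lower and 4.9% higher there.

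**Figure D2:**
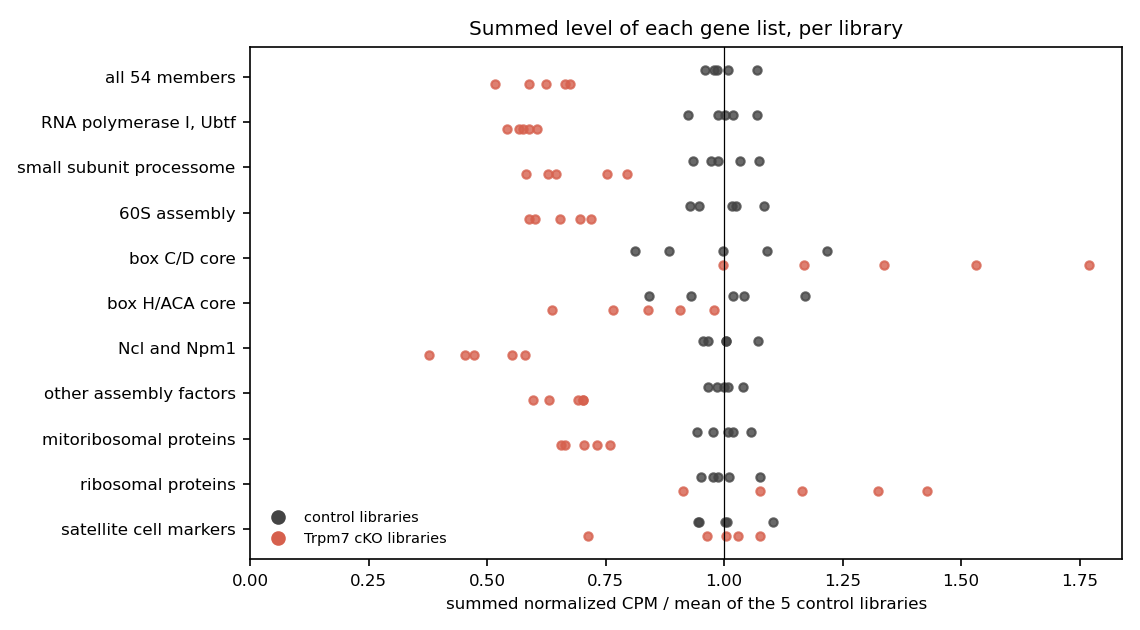
Summed normalized CPM of each gene list in each library, divided by the mean of the 5 control libraries, with control libraries in grey and Trpm7 cKO libraries in red. The members, their RNA polymerase I, small subunit, 60S and phosphoprotein groups, the other assembly factors and the mitochondrial ribosomal proteins lie below all control libraries, whereas the box C/D and box H/ACA cores, ribosomal proteins and satellite cell markers overlap between genotypes.

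RNA polymerase I subunits were the first step of the pathway in which members were lower. Polr1d, a small subunit shared by RNA polymerases I and III (chr5:147077050-147111597, plus strand), was at 577, 525, 598, 689 and 461 CPM in control libraries and at 288, 252, 197, 282 and 215 CPM in Trpm7 cKO libraries. Each Trpm7 cKO library was below each control library. Polr1d was lower by a log2 fold change of -1.19 (SE 0.15; edgeR quasi-likelihood test, adjusted p = 2.78e-06), a 2.28-fold lower level.

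Its partner in the enzyme, Polr1c, which is also shared with RNA polymerase III, was at 147, 143.5, 116, 116 and 141 CPM in control and at 111, 90.2, 73.1, 72.9 and 82.8 CPM in Trpm7 cKO libraries. The groups were separate by a small margin. Polr1c was lower by a log2 fold change of -0.61 (SE 0.16; edgeR, adjusted p = 0.00375), which was -0.41 in thinned counts (adjusted p = 0.13). Polr1e, a subunit specific to RNA polymerase I, was at 9.94, 17.6, 19.3, 22.1 and 24.3 CPM in control and at 7.39, 7.36, 10.96, 14.9 and 0 CPM in Trpm7 cKO libraries, levels close to the 3-count limit in the latter. The groups overlapped, and its log2 fold change of -0.99 (SE 0.39; edgeR, adjusted p = 0.0399) was called in 2 of the 6 fits with 1 library left out in which it had enough counts to be tested. It was lost without Trpm7 cKO replicate 1, 2, 3 or 5, each in turn, and was also lost with DESeq2 (adjusted p = 0.0672) and limma-voom (adjusted p = 0.057).

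The catalytic subunit Polr1a did not pass the test, with control libraries at 50.1 ± 12.4 CPM (SD, n = 5), Trpm7 cKO libraries at 39.6 ± 12.3 CPM (SD, n = 5) and a log2 fold change of -0.42 (SE 0.25; edgeR, adjusted p = 0.164). Polr1b, the other large subunit, was too low to be tested, at 10.7 to 19.9 CPM in control and 5.52 to 19.9 CPM in Trpm7 cKO libraries. Ubtf, which binds ribosomal DNA and assembles the initiation complex, was at 89.7 ± 23.3 CPM (SD, n = 5) and 113 ± 24.8 CPM (SD, n = 5), a log2 fold change of 0.29 that did not pass the test (SE 0.20; edgeR, adjusted p = 0.242) and was -0.90 in unscaled counts. Of the tested RNA polymerase I members, Polr1c, Polr1d and Polr1e were thus lower, and Polr1a and Ubtf were not called. Rrn3, the factor that recruits RNA polymerase I to its promoter and is not a member, was lower by a log2 fold change of -0.74 (SE 0.21; edgeR, adjusted p = 0.00641).

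The snoRNPs guide chemical modification of ribosomal RNA and come with either of a pair of protein cores, box C/D and box H/ACA. None of the 3 box C/D core proteins among the members was lower. Nop58, which holds the guide RNA together with Nop56, was at 276, 353, 248, 235 and 332 CPM in control and at 327, 438, 541, 335 and 508 CPM in Trpm7 cKO libraries. Most Trpm7 cKO libraries were higher, with overlap between 327 and 353 CPM. Its log2 fold change was 0.55 (SE 0.17; edgeR, adjusted p = 0.00983), became 0.34 without the 2 Trpm7 cKO libraries of lowest depth (adjusted p = 0.0951), and was -0.68 in unscaled counts.

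Fbl, the ribose methyltransferase of the box C/D particle, was at 60.7, 67.1, 56.8, 37.1 and 56.7 CPM in control and at 40.7, 71.8, 117, 72.9 and 66.2 CPM in Trpm7 cKO libraries. The Trpm7 cKO values were spread more widely, with 2 libraries within the control range and 3 above it. Fbl did not pass the test, with a log2 fold change of 0.36 (SE 0.23; edgeR, adjusted p = 0.209) that was -0.83 in unscaled counts and -0.01 with the leukocyte covariate. Nop56 was at 109.6 ± 15.1 CPM for control and 114.5 ± 23.8 CPM for Trpm7 cKO (SD, n = 5 each), a log2 fold change of 0.03 (SE 0.17; edgeR, adjusted p = 0.894) that was -0.05 with DESeq2 and -1.15 in unscaled counts. Of the last 500 transcript bases, 76.6% of the 31-base words of Fbl and, depending on the transcript, 7.2 to 80.9% of those of Nop56 also occur in other genes, and Nop56 overlaps Idh3b on the opposite strand. How far such sharing altered their counts was not tested.

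Box H/ACA proteins, which carry out pseudouridylation, were lower for 2 of 4 members, where 24.1% of all tested genes were lower. Nop10 was at 214, 138, 218, 161 and 198 CPM in control and at 97.9, 125, 121, 109 and 177 CPM in Trpm7 cKO libraries. Its groups overlapped through Trpm7 cKO replicate 5, the smallest library. Nop10 was lower, with a log2 fold change of -0.61 (SE 0.18; edgeR, adjusted p = 0.0073). Nhp2 was at 155, 120, 132, 110.4 and 113.5 CPM in control and at 83.2, 95.7, 102, 106 and 93.8 CPM in Trpm7 cKO libraries, and the groups did not overlap. For Nhp2 the log2 fold change was -0.39 (SE 0.15; edgeR, adjusted p = 0.0395) and was called in 4 of the 10 leave-one-out fits, being lost without control replicate 1 or 3 and without Trpm7 cKO replicate 1, 2, 3 or 5, with the highest adjusted p of 0.12. Its 3′ end overlaps Rmnd5b on the opposite strand.

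The pseudouridine synthase Dkc1 was at 98.7 ± 21.9 CPM for control and 116 ± 26.2 CPM for Trpm7 cKO (SD, n = 5 each) and was not called (log2 fold change 0.18, SE 0.19; edgeR, adjusted p = 0.441). This value was -1.02 in unscaled counts, -0.02 with every gene kept, -0.36 once the leukocyte covariate was added and -0.03 in thinned counts. The 3′ end of Dkc1 overlaps Mpp1 on the opposite strand, and 18.1% of its 31-base words also occur in other genes. Gar1, the remaining box H/ACA core protein, was also not called (109 ± 11.9 against 90.1 ± 26.0 CPM, SD, n = 5 each; log2 fold change -0.29, SE 0.18; edgeR, adjusted p = 0.205). A difference between the box C/D and box H/ACA cores was not tested.

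**Figure D3:**
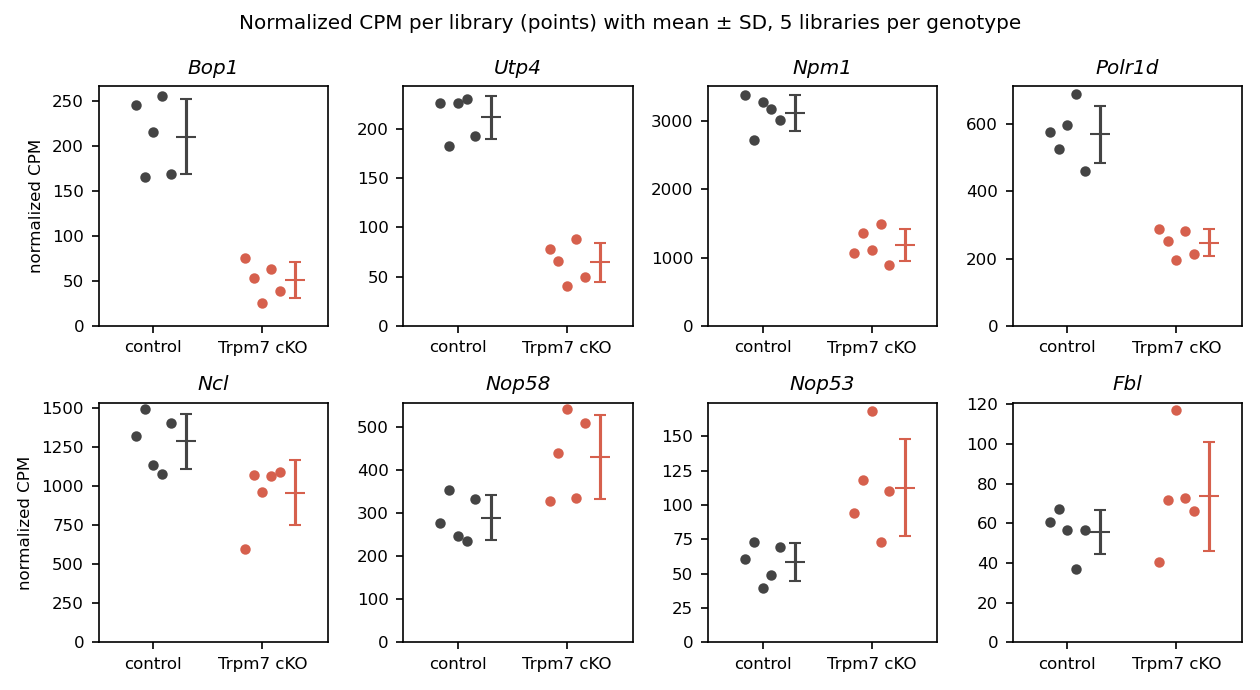
Normalized CPM in each of the 5 control (grey) and 5 Trpm7 cKO (red) libraries for 8 members, with the mean and SD beside the points. Bop1, Utp4, Npm1 and Polr1d show no overlap between genotypes, Ncl, Nop58, Nop53 and Fbl overlap, and Ncl has 1 low Trpm7 cKO library at 599 CPM.

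Among 21 members of the small subunit processome and of 40S maturation, 18 were tested, with a median log2 fold change of -0.48. Of these 18, 6 were lower (33.3%) and 1 was higher (5.56%), against 24.1% and 24.6% of all tested genes. Utp4, a protein of the complex that joins the nascent precursor RNA first (chr8:106893636-106923088, plus strand), was at 226, 183, 226, 229.9 and 192 CPM in control and at 77.6, 66.3, 40.2, 87.8 and 49.7 CPM in Trpm7 cKO libraries. All Trpm7 cKO values were below all control values. Utp4 was 3.11-fold lower, with a log2 fold change of -1.64 (SE 0.18; edgeR, adjusted p = 5.29e-07) that ranged from -1.78 to -1.53 when single libraries were left out.

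Utp18, a component of the processome, was at 157, 116, 142, 151 and 142 CPM in control and at 77.6, 81.0, 51.2, 74.6 and 16.6 CPM in Trpm7 cKO libraries, without overlap. The lowest value came from the smallest library. Its log2 fold change was -1.10 (SE 0.21; edgeR, adjusted p = 2.13e-04). Nol10, another processome protein, was lower by -0.83 (SE 0.24; edgeR, adjusted p = 0.0073) and Utp11 by -0.52 (SE 0.16; edgeR, adjusted p = 0.00964), both without overlap between genotypes. The call for Utp11 was lost with scaling on satellite cell markers (adjusted p = 0.109), in thinned counts (adjusted p = 0.0587) and without the 2 Trpm7 cKO libraries of lowest depth (adjusted p = 0.0586), all in edgeR. Nol6 (log2 fold change -0.57; edgeR, adjusted p = 0.0368) and Nol11 (-0.52; edgeR, adjusted p = 0.0353), likewise processome proteins, were lower with separate groups, and with the leukocyte covariate their values were 0.095 and -0.0058. Calls for this pair were sensitive to single libraries: Nol6 was called in 1 of 10 leave-one-out fits, only without Trpm7 cKO replicate 2, and Nol11 in 5 of 10, being lost without control replicate 2, 3 or 4 and without Trpm7 cKO replicate 1 or 5, with highest adjusted p-values of 0.0669 and 0.0863.

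Utp20, a large scaffold protein of the processome (chr10:88746607-88826804, minus strand), was the exception in this group. It was at 59.7, 57.8, 70.8, 48.2 and 86.8 CPM in control and at 77.6, 129, 73.1, 81.2 and 88.3 CPM in Trpm7 cKO libraries. Overlap came from control replicate 5, and Trpm7 cKO replicate 2 lay well above the other Trpm7 cKO libraries. The log2 fold change was 0.50 (SE 0.20; edgeR, adjusted p = 0.0437), became 0.29 without that replicate (adjusted p = 0.253) and -0.63 in unscaled counts, and was called in 4 of 10 leave-one-out fits, being also lost without control replicate 1, 2, 3 or 4 and without Trpm7 cKO replicate 5. The other 11 tested members of the group, Utp14b, Utp15, Rrp9, Utp6, Nop9, Utp25, Nol7, Rrp36, Utp3, Utp14a and Nop14, had log2 fold changes between -0.64 and 0.12 and were not called.

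Assembly factors of the large (60S) subunit numbered 15, all tested, with a median log2 fold change of -0.50. Of these 15, 7 were lower (46.7%) and 1 was higher (6.67%), against 24.1% and 24.6% of all tested genes. Bop1 (chr15:76452989-76477277, minus strand) forms the PeBoW complex with Pes1 and Wdr12, which is needed to process the precursor of the large subunit RNA. It was at 246, 165, 216, 255 and 169 CPM in control and at 75.8, 53.4, 25.6, 63.0 and 38.6 CPM in Trpm7 cKO libraries. No Trpm7 cKO library came near the control range. Bop1 had the lowest log2 fold change of all tested members, -1.93 (SE 0.21; edgeR, adjusted p = 5.93e-07), a 3.82-fold lower level, with a range from -2.12 to -1.80 when single libraries were left out. Its 3′ end overlaps Mroh1 on the opposite strand.

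Its partners gave smaller values that did not pass the test. Pes1 was at 65.9 ± 10.1 CPM for control and 50.3 ± 14.7 CPM for Trpm7 cKO (SD, n = 5 each; log2 fold change -0.30, SE 0.20; edgeR, adjusted p = 0.225). Wdr12 was at 46.8 ± 6.18 and 32.8 ± 13.1 CPM (SD, n = 5 each; log2 fold change -0.39, SE 0.23; edgeR, adjusted p = 0.172), and between 0 and 58.5% of the 31-base words at its 3′ end, depending on the transcript, are shared with Pms1. A difference between Bop1 and its partners was not tested.

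Nol9, a polynucleotide kinase acting on precursor ribosomal RNA, was at 20.9, 20.7, 23.6, 24.1 and 20.8 CPM in control and at 7.39, 3.68, 10.96, 11.6 and 11.04 CPM in Trpm7 cKO libraries. The groups were separate, although the Trpm7 cKO values stood near or below the 3-count limit of their libraries. Its log2 fold change was -1.37 (SE 0.32; edgeR, adjusted p = 0.00135). Rrp8, a base methyltransferase of the large subunit RNA, was at 37.8, 36.1, 39.7, 28.1 and 33.6 CPM in control and at 14.8, 12.9, 14.6, 21.5 and 5.52 CPM in Trpm7 cKO libraries, again without overlap. Trpm7 cKO replicate 5 held 1 count of Rrp8, below the 3-count limit, and replicate 3 held 4 counts. For Rrp8 the log2 fold change was -1.20 (SE 0.26; edgeR, adjusted p = 8.63e-04).

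Further members with separate groups were Nop16 (log2 fold change -1.07), Rrs1, which helps to load a small ribosomal RNA particle (-0.92), and Nop2, a cytosine methyltransferase (-0.78), with adjusted p-values in edgeR of 3.01e-05, 0.00121 and 0.00506. Gnl3, the GTPase nucleostemin known from stem and proliferating cells, was at 308, 298, 251, 224 and 271 CPM in control and at 146, 158, 219, 209 and 243 CPM in Trpm7 cKO libraries. Trpm7 cKO replicate 5 lay within the control range and the other 4 lay below it. Gnl3 was lower by a log2 fold change of -0.50 (SE 0.16; edgeR, adjusted p = 0.0132), which was -0.39 with scaling on satellite cell markers (adjusted p = 0.144) and -0.32 in counts thinned to the smallest library (adjusted p = 0.175).

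Nop53, which guides the RNA exosome to the maturing large subunit (chr7:15936183-15946074, minus strand), was the member with the highest log2 fold change. It was at 60.7, 73.3, 39.7, 49.2 and 69.5 CPM in control and at 94.2, 118, 168, 72.9 and 110.4 CPM in Trpm7 cKO libraries. Trpm7 cKO replicate 4 fell just inside the control range and the other 4 lay above it. The log2 fold change was 0.90 (SE 0.22; edgeR, adjusted p = 0.0018), a 1.87-fold higher level, was called in all 10 leave-one-out fits, and was -0.30 in unscaled counts. The other 7 tested members of the group, which were not called, had log2 fold changes between -0.63 for Rrp1b and 0.20 for Nol12.

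Npm1 and Ncl encode abundant nucleolar phosphoproteins, histone and RNA chaperones that shuttle between nucleolus and cytoplasm. Npm1 (chr11:33152287-33163206, minus strand) was at 3391, 2718, 3281, 3179 and 3018 CPM in control and at 1062, 1360.0, 1111, 1488 and 899.5 CPM in Trpm7 cKO libraries. All Trpm7 cKO libraries were below all control libraries by a wide margin. Npm1 was 2.62-fold lower, with a log2 fold change of -1.39 (SE 0.15; edgeR, adjusted p = 6.4e-07) and a range from -1.51 to -1.31 when single libraries were left out. Between 0 and 64.9% of the 31-base words at its 3′ end, depending on the transcript, are shared with 14 pseudogenes, so that its level is uncertain.

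Ncl (chr1:86344719-86359400, minus strand) was at 1325, 1492, 1139, 1076 and 1407 CPM in control and at 599, 1071, 965, 1065 and 1093 CPM in Trpm7 cKO libraries. The groups met at their edges, and Trpm7 cKO replicate 1 was far below the others. The log2 fold change was -0.43 (SE 0.16; edgeR, adjusted p = 0.0364), became -0.32 without that replicate (adjusted p = 0.0823), and was also lost without control replicate 1, 2 or 5.

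Of the 20 lower members, 15 were called in all 10 fits that left out 1 library, and 5 lost the call in at least 1 of them (Ncl, Nhp2, Nol11, Nol6 and Polr1e). Nop58 and Nop53 were called in all 10, and Utp20 was not. Nol3, Nol4 and Nol4l, which are named for the nucleolus but are not known to build ribosomes, were all below the filter on low counts. The remaining untested members were Polr1b, Rrp12, Rrp7a and Utp23, with 3.65 to 22.1 CPM across all libraries.

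Other ribosome biogenesis factors that the symbol rule did not reach gave a similar count. Of 101 listed factors 99 were in the table and 85 were tested, with a median log2 fold change of -0.39. Against 24.1% lower and 24.6% higher among all tested genes, 36 of these factors were lower (42.4%) and 2 higher (2.35%). Those beyond both thresholds were Wdr55 (-1.79, SE 0.27; edgeR, adjusted p = 1.99e-05), a factor needed for precursor RNA processing, Pno1 (-1.69, SE 0.19; edgeR, adjusted p = 7.55e-07), which acts late in small subunit maturation, and Heatr1 (-1.60, SE 0.19; edgeR, adjusted p = 1.06e-06), a partner of Utp4 in the processome. The 3′ ends of Wdr55 and Pno1 overlap Dnd1 and Wdr92, respectively, on the opposite strand. Higher were Nsa2 and Senp3, with log2 fold changes of 0.41 and 0.77 (edgeR, adjusted p = 0.0373 and 0.0316).

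RNA exosome genes, which trim ribosomal RNA precursors, were lower for 6 and higher for 1 of 11 tested. RNA polymerase III subunits were lower for 3 of 8 and higher for 0, and RNA polymerase II subunits were lower for 6 and higher for 1 of 12, where 24.1% of all tested genes were lower and 24.6% higher. The structural proteins of the ribosome behaved otherwise. Of 80 tested cytosolic ribosomal protein genes 44 were higher and 7 lower, with a median log2 fold change of 0.47, whereas of 71 tested mitochondrial ribosomal protein genes 3 were higher and 32 lower, with a median of -0.51.

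Among the MYC family and its partners, which regulate many genes of ribosome production, 2 of 8 tested genes were higher and 1 was lower. These shares (25% and 12.5%) stand beside 24.6% and 24.1% of all tested genes. Myc was at 186, 248, 218, 197 and 231.5 CPM in control and at 286, 326, 259, 171 and 243 CPM in Trpm7 cKO libraries. The groups overlapped broadly. Its log2 fold change of 0.25 (SE 0.16; edgeR, adjusted p = 0.209) was not called, was 0.37 without Trpm7 cKO replicate 4 (adjusted p = 0.0432) and was -0.90 in unscaled counts. Mycl, a MYC paralogue, was at 32.8, 42.3, 39.7, 47.2 and 37.0 CPM in control and at 9.24, 1.84, 7.31, 1.66 and 0 CPM in Trpm7 cKO libraries, without overlap. The log2 fold change of Mycl was -3.19 (SE 0.38; edgeR, adjusted p = 1.59e-06), and in Trpm7 cKO replicates 2 to 5 its level was below the 3-count limit.

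The median of the members lay below that of all genes under every setting of the analysis that was tried. The distance between both medians was -0.42 in the analysis reported here and ranged from -0.77 without the filter on low counts to -0.36 without Trpm7 cKO replicate 1. These medians carry no test, since the members share libraries.

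**Figure D4:**
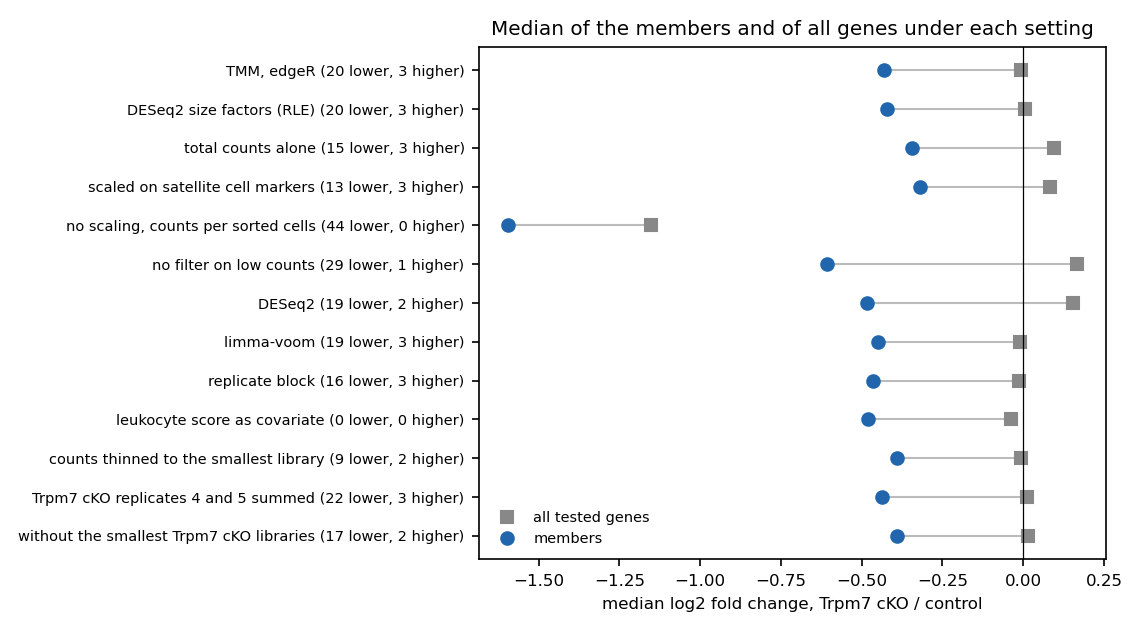
Median log2 fold change of the members (blue) and of all tested genes (grey) under each setting other than leaving out single libraries, with the number of members called lower and higher in brackets. The blue point lies left of the grey square in each row, from -1.60 against -1.15 in unscaled counts to -0.32 against 0.08 with scaling on satellite cell markers, and 0 members are called with the leukocyte covariate.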

How the data were processed

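RNA-seq of 5 control and 5 Trpm7 cKO MuSC libraries was analysed from the count table deposited by the authors. The authors handled UMIs with UMI-tools 1.1.4, trimmed with Trim Galore 0.6.10, aligned to GRCm38 with HISAT2 2.2.1 and assigned reads with featureCounts 2.0.6, giving whole-number counts per gene that were not normalized. Neither the release of the annotation nor a strand setting is given in the sources used here, so that overlapping genes on opposite strands cannot be separated. Where a symbol stood on a further line (12 symbols), the entry with the larger total was kept.

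The test used edgeR 4.0.16 under R 4.3.3, with filterByExpr (minimum count 10, minimum total 15), TMM factors, a robust quasi-likelihood fit with genotype as the only term, and Benjamini-Hochberg adjustment over 7753 genes. The members and the gene lists were chosen with earlier results of these data known. Genes described singly were the RNA polymerase I, snoRNP and phosphoprotein members, Bop1, Pes1, Wdr12 and Gnl3, members beyond both thresholds, the 6 lowest and 6 highest called members, Myc, and context genes beyond both thresholds. Other genes named with values (Rrn3, Utp18, Nol6, Nol10, Nol11, Utp11, Nop16, Rrs1, Nop2, Nsa2 and Senp3) were added after their values were seen. The 23 called members are all named. No pair of libraries of a genotype agreed within counting noise, and the library names of Trpm7 cKO replicates 4 and 5 share a number of unstated meaning.

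Alternatives were RLE factors, total counts, scaling on satellite cell markers, unscaled counts, no filter, DESeq2 1.42.0, limma-voom (limma 3.58.1), a replicate block, a leukocyte covariate, thinned counts, replicates 4 and 5 of Trpm7 cKO summed, single libraries left out and, chosen after seeing the data, both smallest Trpm7 cKO libraries left out. The fit was tested on simulated counts for this comparison, with 7747 genes tested. Of genes changed by a log2 fold change of -1.5, 90.5% were called, and of those changed by -0.75, 31.8%. For changes of 1.5 and 0.75 the shares were 98% and 46.9%, and 7 unchanged genes were called. Only 42 to 50 tested genes were changed at each size, whereas 1908 genes were called higher and 1866 lower in the data. These shares therefore do not carry over to the data. Gene positions and 3′ sequence came from GENCODE M21 for 53 of 54 members, and words of 31 bases in the last 500 transcript bases were compared with other genes. Apart from Npm1, called members shared at most 16.4% of these words (Nol10). Shares reached 15.7% for Nop58, 12.8% for Utp11, 11.7% for Nol9 and 10.0% for Nop53, and were smaller for the rest.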

Additional observations from a re-analysis of the deposited data

Results flagged for a closer look

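Across 56 groups of 5 libraries, a single library far from the other 4 was found in 2, where chance gives about 1 in 20, or 2.8. Ncl in Trpm7 cKO replicate 1 was at 598.7 CPM, while the other Trpm7 cKO libraries lay between 964.6 and 1093 CPM, and the gap took up 0.741 of the range. Utp20 in Trpm7 cKO replicate 2 was at 128.8 CPM, while the others lay between 73.1 and 88.3 CPM, with a gap of 0.727 of the range. The calls for both genes were lost without the library concerned, with adjusted p-values of 0.0823 for Ncl and 0.253 for Utp20 in edgeR.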

How the results depend on the processing

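Of 20 lower and 3 higher members, unscaled counts gave 44 and 0, where 66.6% of all tested genes were lower and 4.9% higher. The leukocyte covariate gave 0 and 0 (all genes 1.87% and 5.2%), and no filter 29 and 1 of 54 tested (all genes 12% and 13.1%). Satellite cell marker scaling gave 13 lower (all genes 16.9%), and thinned counts, which left 31 members to test, 9 lower (all genes 22.7%). Leaving out single libraries gave 16 to 22 lower and 2 to 3 higher, against 20.5 to 23.6% and 22.7 to 25.9% of all tested genes. Members lower beyond both thresholds, 2 here, were 26 in unscaled counts, 4 without the filter and 0 with the leukocyte covariate. They were 1 without both smallest Trpm7 cKO libraries and 2 to 4 with single libraries left out, the 4 without Trpm7 cKO replicate 4. Shares of all genes beyond both thresholds were not taken for these settings. The median of the members, -0.43, was -1.60 in unscaled counts and -0.61 without the filter, and -0.52 to -0.36 with single libraries left out. Of other assembly factors, 36 were lower and 2 higher here. Lower ones numbered 81 in unscaled counts (all genes 66.6%), 0 with the leukocyte covariate (all genes 1.87%) and 18 in thinned counts (all genes 22.7%). Their higher count was 0 in unscaled counts, with DESeq2, with the leukocyte covariate and without the 2 smallest libraries, 1 without the filter, with the replicate block and in thinned counts, and 0 to 3 with single libraries left out. The cause of these moves was not tested, beyond the fewer genes in thinned counts.

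Directions turned in unscaled counts for Ubtf (-0.90), Fbl (-0.83), Nop56 (-1.15), Nop58 (-0.68), Dkc1 (-1.02), Utp20 (-0.63), Nop53 (-0.30) and Myc (-0.90), and with the leukocyte covariate for Ubtf (-0.27), Fbl (-0.013), Nop56 (-0.60), Dkc1 (-0.36) and Nol6 (0.095, the only called member to turn there). Members that were not called and turned with that covariate were also Nol8, Nol12, Nop9, Nop14, Rrp1, Rrp15, Rrp36 and Utp3. Nop56 was also -0.17 without the filter, -0.049 with DESeq2, -0.10 without the 2 smallest libraries, and between -0.066 and 0.12 with single libraries left out. Dkc1 was -0.022 without the filter and -0.033 in thinned counts, where Pes1 was 0.0046. Nop14, Rrp1 and Nol12, not called, also turned in unscaled counts, where all 47 tested members were below zero. Utp14a (0.054) and Utp3 (0.002) turned with satellite cell marker scaling, and Nol12 (-0.20) without the 2 smallest libraries.

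Replicate numbers are shared by both genotypes but did not pair the libraries, since deviations from the group means correlated at -0.04, -0.12, -0.07, 0.06 and 0.18 for numbers 1 to 5. With the replicate block 16 members were lower and 3 higher, against 22.7% and 23.4% of all tested genes. With Trpm7 cKO replicates 4 and 5 summed, 22 of 51 were lower and 3 higher, against 23.2% and 25% of all tested genes. Depth limits the low members, since 3 counts were worth up to 16.6 CPM in the smallest library.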
